A study of Rattus norvegicus with 48 samples.

Results

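The genes described here are 41 genes of the rat major histocompatibility complex (MHC, called RT1 in the rat) and of antigen processing, out of 14324 distinct gene symbols on the arrays. They are the genes with a single-symbol probe set whose symbol starts with RT1-, 34 in number, together with B2m, Tap1, Tap2, Tapbp, Psmb8, Psmb9 and Psmb10. Where a symbol had more than 1 probe set, the one with the highest mean over all arrays was used, which applied to RT1-T24-4. The set was assembled as MHC class I and antigen processing genes, but 9 of its members are class II genes (RT1-Ba, RT1-Bb, RT1-Da, RT1-Db1, RT1-DMa, RT1-DMb, RT1-DOa, RT1-DOb and RT1-Ha). A further 4 RT1 probe sets list several symbols each and were left out by the rule.

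The RNA came from outbred Sprague-Dawley rats, males of the F3 generation killed on postnatal day 120. In the vinclozolin lineage (Vin), F0 mothers received the fungicide vinclozolin by intraperitoneal injection at 100 mg/kg/day from embryonic day 8 to 14. In the control lineage (Con), F0 mothers received the vehicle DMSO, and the F2 litters that gave the F3 males of both lineages were untreated. Stressed animals (St) were restrained for 6 h a day over 21 days, from postnatal day 23 to 43, and non-stressed animals (NSt) were not. Each rat lived in a dyad with 1 cage mate of the other lineage. Tissue punches of 2 mm were taken from the basolateral amygdala (BLA), the motor cortex (CRTX) and the hippocampal fields CA1 and CA3, and each array carried RNA pooled from 4 rats. Each lineage was thus measured without stress (NSt-Con, NSt-Vin) and with it (St-Con, St-Vin) in 3 pools per area, and the same animals supplied all 4 areas. The labels do not say how many F0 mothers or litters stand behind each lineage.

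Of 48 arrays 46 were used, because CRTX NSt-Vin 2 and CA1 St-Con 3 equalled the mean of the other arrays of their group at all probe sets, within 0.005 log2. Array medians ranged from 7.08 to 7.13 in the BLA, 6.76 to 6.80 in the CRTX, 7.11 to 7.17 in CA1 and 7.34 to 7.39 in CA3. Each area was scanned on its own day or days, apart from a day shared by BLA and CRTX, so for most pairs area and scan day cannot be told apart. The labels give one RNA preparation day for all BLA and CRTX arrays and another for all CA1 and CA3 arrays, so hippocampal fields against the other areas cannot be told apart from that day either. The CA1 marker Wfs1 and the CA3 marker Grik4 were both higher in arrays labelled CA3 (means 10.3 and 9.06) than in CA1 (9.85 and 8.59). After quantile normalization over all arrays they read 9.97 and 8.75 in CA3 against 9.79 and 8.55 in CA1. The CA1 marker Fibcd1 was also higher in CA3 on that scale, at 8.088 against 7.885. These markers thus did not set the fields CA1 and CA3 apart. A list of 13 choroid plexus genes, the tissue that makes cerebrospinal fluid, stood over 0.6 log2 above the area mean in 5 arrays: BLA St-Vin 3, CRTX NSt-Con 1, CA1 NSt-Con 2, CA1 NSt-Con 3 and CA3 NSt-Con 3. A list of 8 striatal neuron genes ran from 7.46 to 10.13 over the BLA arrays. Its BLA group medians were 8.27 in NSt-Con, 8.02 in NSt-Vin, 10.12 in St-Con and 9.75 in St-Vin. The part of striatal tissue in the BLA values was not tested.

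MHC class I molecules carry short peptides from proteins made inside the cell to the cell surface, where T cells read them. The immunoproteasome subunits (Psmb8, Psmb9, Psmb10) cut proteins into such peptides, the transporter Tap1/Tap2 moves them into the endoplasmic reticulum, tapasin (Tapbp) assists their loading, and beta-2-microglobulin (B2m) is the light chain that class I heavy chains need. Class II molecules present peptides taken up from outside and are made mainly by microglia, macrophages and other antigen-presenting cells, and in the brain class I molecules are also made by neurons, where they have been linked to synapse remodelling. Interferons induce most genes of both classes. Promoters of class I and processing genes can hold interferon-stimulated response elements (ISRE) and kappaB elements.

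Because these genes are known for shared promoter elements, the promoters of the RefSeq table (build GRCr8, from 250 bases before to 50 after each start) were searched on both strands, and 38 of the 41 genes had an entry. The ISRE core, GAAA followed by any pair of bases and GAAA again, was found in 9 of 38 (B2m, Psmb8, Psmb10, Tap1, Tap2, Tapbp, RT1-N3, RT1-S2 and RT1-S3), against 3.92% of all 33469 promoters. The kappaB element, whose letters are the capitals of the RT1-CE10 sequence printed here, was found in 5 of 38 (RT1-CE4, RT1-CE10, RT1-CE11, RT1-CE13 and RT1-CE16), against 0.0627% of all. CCAAT was found in 26 of 38, against 37.5% of all. A match describes the sequence only. Stretches before the annotated gene are printed for B2m, the common light chain, for RT1-CE10, as an example of the kappaB class, and for RT1-S2, which was called in the CRTX (values further on). Capitals mark the motif found, the ISRE core on either strand or the kappaB element. The stretches lie at chr3:129549080-129549235 (+ strand, B2m), chr20:3385053-3385229 (− strand, RT1-CE10) and chr20:2654804-2655053 (+ strand, RT1-S2).
B2m: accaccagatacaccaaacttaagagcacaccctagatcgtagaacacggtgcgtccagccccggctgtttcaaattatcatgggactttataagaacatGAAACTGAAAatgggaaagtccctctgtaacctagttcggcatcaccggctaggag
RT1-CE10: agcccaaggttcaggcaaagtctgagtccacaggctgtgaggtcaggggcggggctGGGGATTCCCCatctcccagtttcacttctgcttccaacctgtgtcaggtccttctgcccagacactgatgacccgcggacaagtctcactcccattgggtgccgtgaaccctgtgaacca
RT1-S2: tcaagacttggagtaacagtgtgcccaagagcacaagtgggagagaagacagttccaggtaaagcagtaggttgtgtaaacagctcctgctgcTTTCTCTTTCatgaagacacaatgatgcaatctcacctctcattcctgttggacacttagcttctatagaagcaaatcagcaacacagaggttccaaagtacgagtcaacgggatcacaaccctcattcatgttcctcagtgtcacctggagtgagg

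RT1-M6-1 and RT1-M6-2 are non-classical class I genes that lie close to each other on chromosome 20, their printed stretches starting 17062 bases apart, and they are shown together because the results in CA1 turn on them. Over the 250 bases before their starts the sequences were 96.0% identical (242 of 252 aligned columns), the highest identity among 703 pairs of members. The next pair, RT1-CE13 and RT1-CE16, reached 87.5% and the median pair 49.5%. The printed stretches, at chr20:1571221-1571438 and chr20:1588283-1588500 of GRCr8 (both + strand), were identical at 210 of 220 aligned columns, and capitals mark the bases of the 10 columns that differ. Whether the probes of one gene also read the other was not tested.
RT1-M6-1: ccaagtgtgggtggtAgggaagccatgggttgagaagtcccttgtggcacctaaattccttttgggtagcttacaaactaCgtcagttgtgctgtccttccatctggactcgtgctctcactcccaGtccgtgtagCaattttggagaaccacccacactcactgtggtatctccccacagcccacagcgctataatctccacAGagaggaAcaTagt
RT1-M6-2: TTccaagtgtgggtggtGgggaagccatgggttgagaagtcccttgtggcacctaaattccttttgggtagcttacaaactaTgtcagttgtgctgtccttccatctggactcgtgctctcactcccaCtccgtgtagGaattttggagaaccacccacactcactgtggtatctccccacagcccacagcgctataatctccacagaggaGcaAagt

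Members differed in how far they stood above the dimmest signals on these arrays. Of the 41 members, 30 lay at or above the 30th percentile of all probe sets in every area. Psmb8, Tap1, RT1-CE2, RT1-S2, RT1-N3, RT1-Db1 and RT1-Ha lay below it in every area. B2m lay at the 98.3 to 98.8 percentile in the 4 areas.

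The first comparison asked whether the ancestral vinclozolin exposure changed these genes in F3 males. The main fit, which does not pair the pools of cage mates, called no member between lineages. This held within each of the 4 areas and over their mean. Of all 27342 probe sets 0 were called in each of these contrasts as well (0%, limma with Benjamini-Hochberg adjustment over all probe sets, threshold 0.05). At an unadjusted p under 0.05, the BLA lineage contrast without stress held 0 of 41 members (2.09% of all probe sets), the CRTX 3 (5.68%), CA1 2 (3.28%) and CA3 1 (5.38%). With stress the counts were 2 in the BLA (2.58%), 5 in the CRTX (6.04%), 6 in CA1 (4.97%) and 0 in CA3 (4.18%). Averaged over stress they were 1 in the BLA (3.6%), 4 in the CRTX (5.77%), 3 in CA1 (4.26%) and 4 in CA3 (3.44%). Over the mean of the areas they were 0 without stress (3.12%), 3 with it (4.4%) and 1 averaged (2.97%). The median lineage difference over the members lay between -0.06 and 0.01 log2 in the 8 contrasts within areas that split by stress, and that over all probe sets between -0.01 and 0.01. With dyad group as a block, members were called in CA1 under stress, among them RT1-M6-1 (adjusted p = 0.0170 in limma), as given further on.

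B2m, the light chain, overlapped between groups. In the BLA its group means were 11.31 ± 0.09 (SD, n = 3) in NSt-Con, 11.28 ± 0.13 (n = 3) in NSt-Vin, 11.30 ± 0.11 (n = 3) in St-Con and 11.26 ± 0.13 (n = 3) in St-Vin, and all 4 groups overlapped. The BLA arrays whose striatal list read 9.67 or more had B2m from 11.14 to 11.30, and the other BLA arrays from 11.31 to 11.41. In CA3 they were 11.87 ± 0.12, 11.83 ± 0.09, 11.85 ± 0.07 and 11.79 ± 0.11 in the same order, each of 3 pools. Of the immunoproteasome subunits, Psmb9 gave the processing genes' smallest p in a lineage contrast. In CA3 it read 7.52, 7.38 and 7.68 in NSt-Con, 7.35, 7.27 and 7.45 in NSt-Vin, 7.56, 7.49 and 7.66 in St-Con and 7.47, 7.24 and 7.46 in St-Vin. The stressed Vin pools lay below the stressed Con pools without overlap and the non-stressed groups overlapped. Set against the Con pool of its cage mates, each Vin pool was lower for Psmb9, in 6 of 6 dyad groups (differences from -0.25 to -0.09). Among the members all dyad groups were also lower for RT1-T24-1 in CA3 and for RT1-CE7 and RT1-M6-2 in the CRTX. They were all higher for RT1-T18 in the BLA and RT1-M1-4 in CA1. The share of all probe sets that went one way in this manner was not counted. With only 5 or 6 dyad groups in an area, some genes go one way by chance. These cases alone therefore do not show a lineage effect. The averaged lineage difference of Psmb9 in CA3 was -0.17 ± 0.06 (SE), with an adjusted p of 0.997 in limma and of 0.957 with dyad group as a block.

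Several class I genes gave the smallest p of the lineage contrasts, and none passed the adjustment in the main fit. Genes named for a small p, here and in the stress contrasts, tend to have groups without overlap. A lack of overlap in them therefore adds no support. The share of all probe sets without overlap was not counted. RT1-M6-1 in CA1 under stress read 7.48 and 7.32 in St-Con against 6.93, 6.87 and 7.07 in St-Vin. The groups did not overlap, and the difference was -0.44 ± 0.07 with an adjusted p of 0.887 in limma. With dyad group as a block, which sets each Vin pool against the Con pool of its cage mates, it was -0.50 with an adjusted p of 0.0170, and the number called in that contrast rose from 0 to 347 of all probe sets and from 0 to 2 members. That fit has St-Con pools for only 2 of the 3 stressed dyad groups in CA1, and the St-Vin arrays were the only ones used in CA1 from their scan day, so the lineage effect under stress cannot be told apart from that of the scan.

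In the BLA, the class I gene RT1-S3 read 7.03, 6.93 and 6.99 in St-Con against 7.22, 7.20 and 7.20 in St-Vin. The groups did not overlap, and the difference was 0.22 ± 0.06 (adjusted p = 1 in limma). In the CRTX under stress, RT1-S2 differed by 0.44 ± 0.11 (Vin minus Con, adjusted p = 0.826 in limma). RT1-DMb, a chain of the class II peptide exchanger, differed by 0.33 ± 0.09 in CA1 under stress (adjusted p = 0.887 in limma) and read 7.24 and 7.13 in St-Con against 7.48, 7.59 and 7.47 in St-Vin. It also gave the smallest p of any member when the lineage effect was tested for a difference between areas (F = 5.53, adjusted p = 1.00 in limma). That test called 0 of 27342 probe sets (0%), and 2 members had an unadjusted p under 0.05 (4.26%).

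The second comparison asked whether the earlier restraint was followed by other levels of these genes in adults. In the CRTX of the control lineage 2 of 41 members were called (0.636% of all probe sets), the class I genes RT1-CE2 higher (0.278% of all) and RT1-S2 lower (0.358%). Neither gene passed in the vinclozolin lineage or in another area. Under limma 11 of 41 members had an unadjusted p under 0.05, against 18.3% of all probe sets. The median difference over the members was -0.02 and over all probe sets -0.01.

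RT1-CE2, a class I heavy chain gene of the RT1-C/E region, read 5.61, 5.36 and 5.39 in CRTX NSt-Con and 6.13, 5.96 and 6.04 in St-Con. The groups did not overlap. The difference was 0.59 ± 0.08 (adjusted p = 0.0220 in limma). The vinclozolin groups lay between them, at 5.61 and 5.76 in NSt-Vin and 5.66, 5.89 and 5.81 in St-Vin, with a difference of 0.10 ± 0.09 (adjusted p = 0.998 in limma). The interaction, which tests the lineages' stress effects against each other, was -0.49 ± 0.12 with an adjusted p of 0.842 in limma, so a difference between the lineages was not shown. In control animals the same contrast was 0.21 ± 0.12 in the BLA, 0.08 ± 0.13 in CA1 and 0.11 ± 0.07 in CA3, and averaged over the areas 0.25 ± 0.05 (adjusted p = 0.599 in limma).

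RT1-S2, another class I gene, went the other way, at 6.08, 5.87 and 6.06 in CRTX NSt-Con and 5.32, 5.56 and 5.42 in St-Con. The groups did not overlap, and the difference was -0.57 ± 0.11 (adjusted p = 0.0463 in limma). NSt-Vin read 5.96 and 5.96, and St-Vin 5.99, 5.58 and 6.04, for a difference of -0.09 ± 0.12. Of the members RT1-S2 had the widest residual spread over all areas, with an SD of 0.327 that was higher than in 98.8% of all probe sets. In CA1, for example, it read 5.41, 5.53 and 6.54 in NSt-Con and 5.48 and 6.68 in St-Con, so pools of 1 group differed by more than the CRTX groups did.

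All CRTX NSt-Con arrays were scanned on one day and all St-Con arrays on another. With scan day as a block, which rests on the 2 NSt-Vin arrays, RT1-CE2 differed by 0.44 and RT1-S2 by -0.57, each with an adjusted p of 0.663 and 0 probe sets called of 27342. CRTX NSt-Con 1 was also the array richest in choroid plexus RNA: the list read 6.65 to 8.95 in NSt-Con and 5.90 to 6.06 in St-Con, and 13 of 13 of its genes were lower in St-Con. Without that array RT1-CE2 remained called and RT1-S2 did not (adjusted p = 0.0947 in limma), and 19 probe sets were called in all. Leaving out any one of NSt-Con 2, NSt-Con 3, St-Con 1, St-Con 2 or St-Con 3 took away both calls (adjusted p of RT1-CE2 from 0.0567 to 0.113 in limma), and leaving out NSt-Vin 1, NSt-Vin 3 or St-Vin 1 took away that of RT1-S2 (0.0504 to 0.0647). The part of the scan day and of choroid plexus RNA in these calls was not tested further. The microglial list, of cells that make MHC molecules, read 7.33 to 7.35 in NSt-Con and 7.33 to 7.44 in St-Con.

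**Figure D1:**
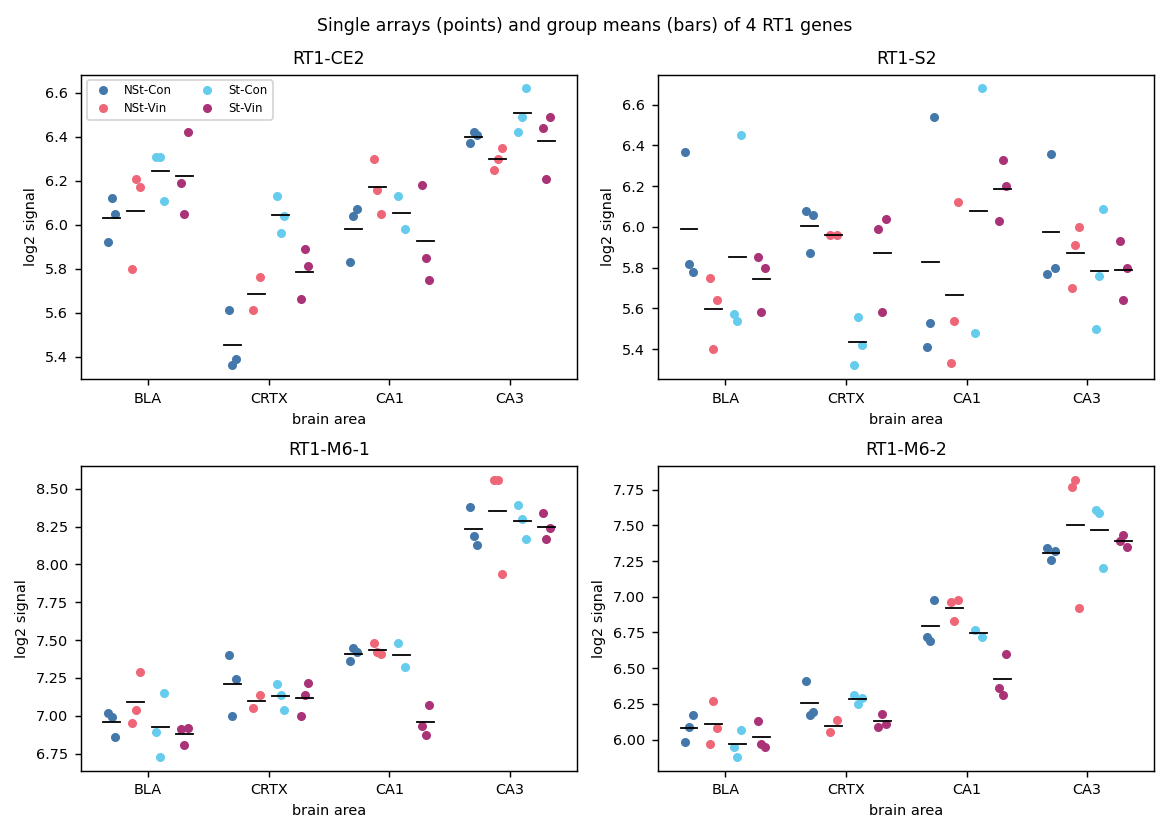
Log2 signal of RT1-CE2, RT1-S2, RT1-M6-1 and RT1-M6-2 in each array (points, coloured by group) and the group mean (bars), by brain area. RT1-CE2 sits higher and RT1-S2 lower in CRTX St-Con than in NSt-Con, the St-Vin arrays of CA1 hold the lowest CA1 values of both RT1-M6 genes, and CA3 holds the highest values of both.

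In CA1 of the vinclozolin lineage 1 of 41 members was called after stress (0.505% of all probe sets), RT1-M6-1, which fell (0.41% of all probe sets fell). Its neighbour RT1-M6-2 had a difference of similar size and missed the threshold. RT1-M6-1 read 7.48, 7.42 and 7.41 in NSt-Vin and 6.93, 6.87 and 7.07 in St-Vin, and the groups did not overlap. The difference was -0.48 ± 0.07 (adjusted p = 0.0447 in limma). RT1-M6-2 read 6.96, 6.83 and 6.98 in NSt-Vin and 6.36, 6.31 and 6.60 in St-Vin, again without overlap, for -0.50 ± 0.09 (adjusted p = 0.0524 in limma).

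The control lineage showed no such gap in CA1, at 7.36, 7.45 and 7.42 in NSt-Con and 7.48 and 7.32 in St-Con for RT1-M6-1 (difference -0.01 ± 0.07). The interaction was -0.47 ± 0.10 (adjusted p = 0.965 in limma), so a difference between the lineages was not shown. In the other areas the RT1-M6-1 contrast in Vin animals was -0.21 ± 0.11 in the BLA, 0.03 ± 0.11 in the CRTX and -0.10 ± 0.14 in CA3. The stress effect was tested for a difference between areas, and 0 of 41 members passed (0.907% of all probe sets; 7 at an unadjusted p under 0.05, against 17.6%), with RT1-CE2 nearest at an adjusted p of 0.119.

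In this CA1 contrast 33 of 41 members had a negative difference, with a median of -0.09 against -0.02 over all probe sets. The share of all probe sets with a negative difference was not counted. The members were read in the same arrays, so their signs are not independent. At an unadjusted p under 0.05 there were 13 members, against 19.3% of all probe sets. Leaving out single arrays moved the number of members called between 0 and 2, and the RT1-M6-1 difference between -0.54 and -0.44 with adjusted p from 0.0194 to 0.167. It was not called without NSt-Con 1, NSt-Con 2, any of the NSt-Vin or St-Con arrays, St-Vin 1 or St-Vin 2.

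Several marker lists of other cells moved with these St-Vin arrays. The list of CA3 and CA2 markers read 8.53 to 9.13 in CA1 NSt-Vin and 7.73 to 8.53 in St-Vin, with 6 of 6 genes lower and a median difference of -0.42. The oligodendrocyte list read 10.20 to 10.58 in NSt-Vin and 10.47 to 11.01 in St-Vin, with 7 of 7 genes higher and a median of 0.51. The astrocyte list was lower, with 6 of 6 genes at a median of -0.16. The RT1-M6 genes were themselves highest in CA3 (below), and the part of these lists in the CA1 result was not tested. In bulk tissue fewer cells of a type and less RNA per cell cannot be told apart. The 3 St-Vin arrays of CA1 were the only ones used there from their scan day, so the stress effect in Vin cannot be told apart from that of the scan.

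Stress called no member in the BLA, in CA3 or over the mean of the areas (0% of all probe sets in each). At an unadjusted p under 0.05 the BLA held 1 member in Con (3.1% of all probe sets), 1 in Vin (2.02%) and 2 averaged (4.13%), and CA3 held 1 (3.57%), 2 (14%) and 4 (10.6%). The mean of the areas held 8 in Con (6.71%), 3 in Vin (6.08%) and 6 averaged (8.27%). The CRTX held 1 in Vin (3.13%), and CA1 held 2 in Con (3.25%) and 8 averaged (16.9%). In the CRTX, averaged over the lineages, it called 0 members (0.00731% of all probe sets; 8 unadjusted, against 14.1%). The interaction called 0 members everywhere (0%), with 2 unadjusted in the BLA (1.21%), 5 in the CRTX (5.61%), 6 in CA1 (4.11%), 1 in CA3 (6.6%) and 3 over the mean of the areas (4.57%). The smallest p in the BLA and CA3 of control animals belonged to RT1-S3 in the BLA, which read 7.14, 7.27 and 7.22 in NSt-Con against 7.03, 6.93 and 6.99 in St-Con (difference -0.23 ± 0.06, adjusted p = 0.997 in limma), and RT1-CE4 in CA3, which read 7.75, 7.68 and 7.73 in NSt-Con against 7.57, 7.53 and 7.60 in St-Con (-0.15 ± 0.04, adjusted p = 0.997 in limma). In both genes the groups did not overlap, but both were picked by their small p. The class II gene RT1-Da and the loading factor Tapbp differed in CA1 of control animals by -0.46 ± 0.18 and -0.23 ± 0.09 (adjusted p = 0.996 each in limma), where NSt-Con holds 2 choroid-rich arrays. No processing gene passed in a lineage or stress contrast; B2m gave its smallest p in CA1, averaged over the lineages, at -0.12 ± 0.06 (adjusted p = 0.337 in limma).

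In the CRTX stress contrast of control animals 0 of 12 folding and trimming genes, 0 of 13 constitutive proteasome subunits, 0 of 20 regulators, 0 of 21 interferon-induced genes and 0 of 96 neighbours, the genes between the first and the last RT1 member on their chromosome, were called by limma; at an unadjusted p under 0.05 there were 4, 1, 3, 1 and 17, against 18.3% of all probe sets. In the CA1 contrast of Vin animals 1 of 20 regulators was called, Ifngr2, a chain of the interferon-gamma receptor, at -0.40 ± 0.07 (adjusted p = 0.0450 in limma). None of the other lists had a called gene there, and the share of all probe sets called in this contrast is given above. The 21 interferon-induced genes had medians of 0.01 in the CRTX contrast and -0.05 in the CA1 contrast.

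**Figure D2:**
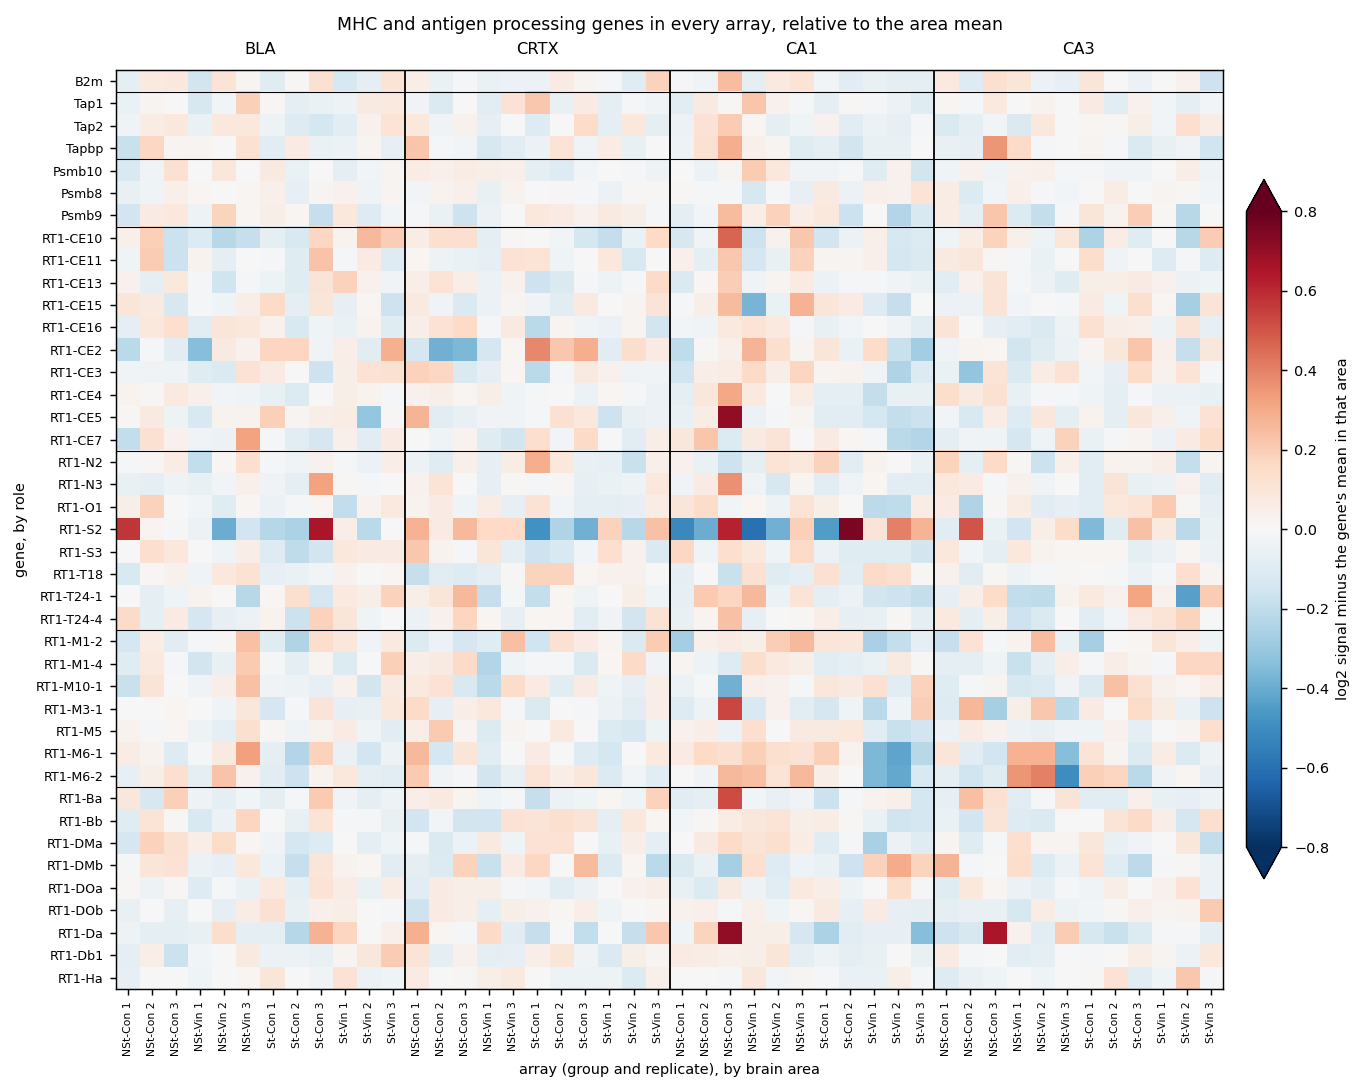
Deviation of each of the 41 genes (rows, by role) from its mean over the arrays of that area, in log2 units, in each array (columns), with colours clipped at 0.8. RT1-S2 varies most from array to array, CA1 NSt-Con 3 and CA3 NSt-Con 3 stand high for RT1-Da, and the 3 St-Vin arrays of CA1 stand low for RT1-M6-1 and RT1-M6-2.

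RT1 genes are polymorphic in outbred rats, and the same pools were measured in all areas, so it was asked whether pools of a group differed in the same way in every area. A moderated F test of the pools within their groups (8 coefficients, 22 residual degrees of freedom) called 0 of 41 members (0.933% of all probe sets). At an unadjusted p under 0.05 there was 1 member, against 14% of all probe sets. The pool coefficients took a median of 25.9% of the spread within groups in the members and 29.5% in all probe sets. Fitting 8 coefficients takes part of the spread even where pools do not differ, so such a share alone shows no pool effect. Genotypes were not measured.

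The member nearest to the threshold was RT1-M1-2, a non-classical class I gene, with F = 2.92 (adjusted p = 0.238 in limma) and a pool share of 49.8%. The pool NSt-Con 1 lay below its group mean in all 4 areas, by -0.08 in the BLA, -0.01 in the CRTX, -0.22 in CA1 and -0.16 in CA3. The pool NSt-Con 2 lay above it in all 4, by 0.12, 0.05, 0.09 and 0.14. RT1-M1-4 (adjusted p = 0.412) and RT1-M10-1 (adjusted p = 0.438), listed by RefSeq as a non-coding RNA, followed in limma's order, then RT1-Ba (0.514), Psmb9 (0.521), RT1-N2 (0.570), RT1-CE13 (0.581) and RT1-S2 (0.633). RT1-S2, for all its spread, had a pool share of 30.6%: its pool NSt-Con 1 read 6.37 in the BLA, 6.08 in the CRTX, 5.41 in CA1 and 5.77 in CA3.

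Among the 96 neighbours 4 were called by the same test, whose share over all probe sets is given above. They were Bag6, a chaperone (F = 11.1, adjusted p = 0.00383 in limma, pool share 83.1%), Neu1, a lysosomal sialidase (F = 9.02, adjusted p = 0.00841), Gabbr1, a GABA-B receptor subunit (F = 6.04, adjusted p = 0.0373) and Tubb5, a beta-tubulin (F = 5.83, adjusted p = 0.0409). Of the 21 interferon-induced genes, Mx2 was called (F = 10.3, adjusted p = 0.00417 in limma, pool share 76.8%). Calls were not limited to these lists: of 5 amygdala markers Lypd1 was called. Of 6 neuron markers none was called, but 5 had an unadjusted p under 0.05 in limma. Whether the neighbours were called more often than other probe sets was not tested.

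**Figure D3:**
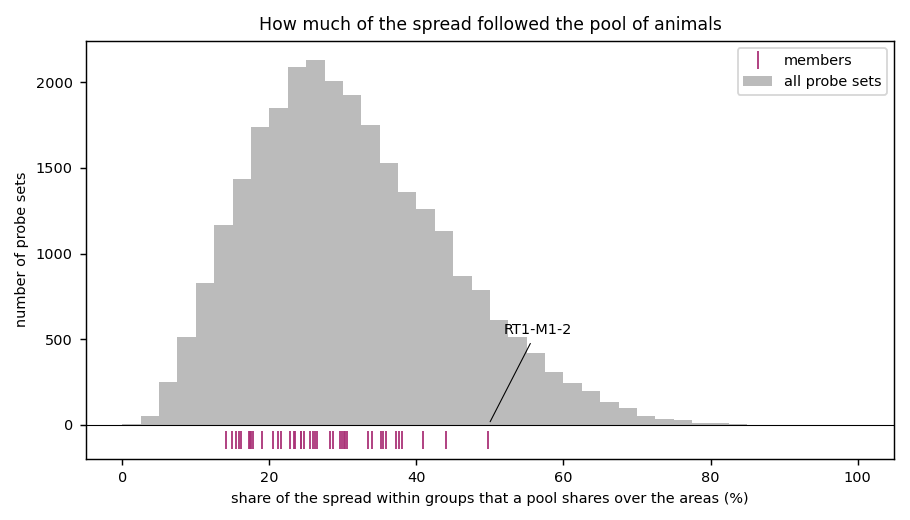
Share of the spread within groups, in percent, that the fitted pool coefficients take over the areas, as a histogram over all probe sets (grey, number of probe sets) with the 41 members as ticks. The coefficients take part of the spread even where pools do not differ. The members run from 14.1% to 49.8%, and RT1-M1-2 has the highest share of them at 49.8%.

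The areas differed in nearly all members, as they did in most probe sets. As deposited, 39 of 41 members were called between CA3 and CRTX (95.1% of all probe sets), 39 higher (92.4%) and 0 lower (2.71%) in CA3. Between CA1 and CRTX 40 were called (88.6%; 39 higher, 84.1%, and 1 lower, 4.51%), between BLA and CRTX 36 (79.6%; 32 higher, 62.4%, and 4 lower, 17.2%), between CA3 and BLA 34 (87.7%; 30 higher, 79%, and 4 lower, 8.64%), between CA3 and CA1 34 (80.2%; 31 higher, 71.6%, and 3 lower, 8.67%) and between CA1 and BLA 34 (77%; 22 higher, 56.1%, and 12 lower, 20.9%). The arrays as a whole shifted too: the median over all probe sets was 0.50 for CA3 minus CRTX, 0.30 for CA1 minus CRTX, 0.18 for BLA minus CRTX, 0.32 for CA3 minus BLA, 0.21 for CA3 minus CA1 and 0.13 for CA1 minus BLA. After quantile normalization over all arrays, which sets these medians to 0.00, members were called in both directions. CA3 minus CRTX gave 21 higher (35.2% of all probe sets) and 12 lower (36.7%), 71.9% being called in all, CA1 minus CRTX 15 (31.8%) and 10 (33.2%; 65% in all), BLA minus CRTX 18 (36.7%) and 15 (37.6%; 74.3%), CA3 minus BLA 18 (36.3%) and 15 (36%; 72.3%), CA3 minus CA1 14 (29.7%) and 12 (28.9%; 58.6%) and CA1 minus BLA 19 (35.4%) and 14 (34.7%; 70.1%). The direction of each area difference named next held on both scales, except where it is said to turn.

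Among the class I members the RT1-M6 genes had the widest difference between any 2 areas, on both scales. As deposited, RT1-M6-1 ran from 6.73 to 7.29 (median 6.93) in the BLA, 7.00 to 7.40 (7.14) in the CRTX, 6.87 to 7.48 (7.41) in CA1 and 7.94 to 8.56 (8.27) in CA3, and the CA3 arrays lay above all others. On the quantile-normalized scale CA3 exceeded CA1 by 0.70 ± 0.06, the CRTX by 0.52 ± 0.06 and the BLA by 1.02 ± 0.05 (adjusted p = 8.39e-13, 4.78e-10 and 9.84e-18 in limma). RT1-M6-2 followed, with CA3 above CA1 by 0.46 ± 0.07, the CRTX by 0.65 ± 0.07 and the BLA by 1.10 ± 0.06. As deposited, CA3 exceeded the CRTX by 1.14 (RT1-M6-1) and 1.22 (RT1-M6-2), and CA1 by 0.70 for RT1-M6-2. The order of CA1 and CRTX for RT1-M6-1 turned with the scale, at 0.16 (CA1 minus CRTX) as deposited and -0.18 after normalization. Within CA3, NSt-Vin 3 was the lowest array for both genes, at 7.94 and 6.92.

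Of the class II genes, RT1-Da, a class II alpha chain, was higher in both hippocampal fields, whose RNA shared a preparation day. It ran from 5.51 to 6.02 in the BLA and 5.25 to 5.73 in the CRTX, and from 6.03 to 7.08 in CA1 and 6.67 to 7.50 in CA3, so each hippocampal array lay above every BLA and CRTX array. After normalization CA3 exceeded the BLA by 0.84 ± 0.08 and CA1 did so by 0.55 ± 0.08 (adjusted p = 7.46e-12 and 2.02e-07 in limma). RT1-Ba, another class II alpha chain, was 0.54 ± 0.05 higher in CA1 than in the BLA. RT1-DOa, a chain of the class II regulator DO, was highest in CA3, at 0.54 ± 0.03 above CA1 (adjusted p = 5.34e-18 in limma). Not all class II genes were higher in the hippocampal fields. As deposited, RT1-Db1 differed by -0.13 ± 0.03 for CA3 minus CA1 (adjusted p = 8.71e-05 in limma). In fits that each left out a pool, it differed by -0.15 to -0.13 for CA3 minus BLA. RT1-DMb differed by -0.37 to -0.33 for CA1 minus BLA in such fits. As deposited, the list of 15 microglial genes had medians of 8.02 in the BLA, 7.34 in the CRTX, 8.04 in CA1 and 8.27 in CA3. Of these genes, Cx3cr1 had quantile-normalized means of 8.88 in the BLA, 7.98 in the CRTX, 8.70 in CA1 and 8.78 in CA3. The BLA was highest there, and as deposited CA3 was, at 9.09 against 8.75 in the BLA. C1qa had the same highest areas on the respective scales. Aif1 was highest in the BLA on both scales, at 7.50 against 7.37 in CA3 as deposited.

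The RT1-CE heavy chains are the largest class I group here. RT1-CE3 was lowest in CA3, by 0.58 ± 0.05 against CA1 and 0.62 ± 0.04 against the BLA on the normalized scale (adjusted p = 5.87e-13 and 1.96e-14 in limma). Against the CRTX the deficit of 0.58 ± 0.05 shrank to 0.06 ± 0.05 as deposited, which was not called. RT1-T24-1 was lower in CA3 than in the BLA by 0.54 ± 0.05 on the normalized scale and by 0.14 ± 0.05 as deposited (adjusted p = 0.0145 in limma, 0.0696 without St-Con 2 and 0.0518 without St-Vin 2).

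Of the processing genes, B2m was lowest in the CRTX, by 0.41 ± 0.04 against CA3, 0.38 ± 0.04 against CA1 and 0.27 ± 0.04 against the BLA after normalization (adjusted p = 4.72e-11, 1.45e-09 and 3.16e-07 in limma). As deposited the differences from CA3 and CA1 were larger, at 0.80 and 0.57. Psmb9 followed the same order, with the CRTX lowest by 0.46 ± 0.05 against CA3 and 0.21 ± 0.05 against the BLA (1.05 and 0.54 as deposited). Psmb10 was lowest in the BLA, by 0.60 ± 0.03 against the CRTX (0.28 as deposited) and 0.49 ± 0.03 against CA1. The transporter chains parted: Tap2 was lower in the BLA than in the CRTX by 0.46 ± 0.03, and Tap1 was higher there by 0.38 ± 0.03 (adjusted p = 8.81e-15 and 1.81e-12 in limma). As deposited these differences were 0.13 for Tap2 and 0.62 for Tap1. Tapbp was highest in CA3, by 0.17 ± 0.04 against CA1 and 0.18 ± 0.04 against the BLA (0.43 and 0.47 as deposited), and Psmb8 was lower in the BLA than in CA1 by 0.43 ± 0.02.

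**Figure D4:**
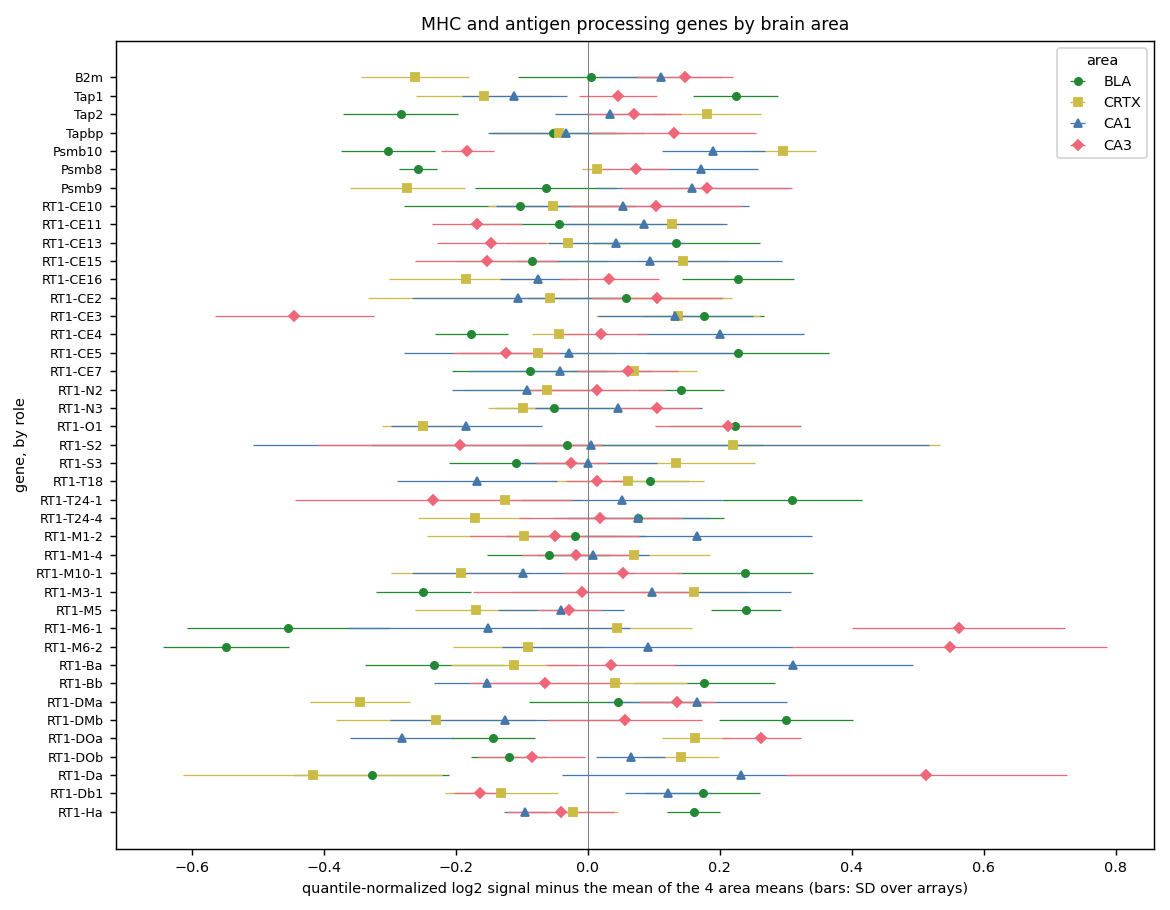
Quantile-normalized log2 signal of each member in the 4 areas, as the area mean minus the mean of the 4 area means (points) with the SD over 11 or 12 arrays (bars). RT1-M6-1 and RT1-M6-2 hold the rightmost points, in CA3, and the leftmost, in the BLA; RT1-Da lies to the right in CA1 and CA3, and RT1-CE3 is the leftmost of the CA3 points.

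The choroid-rich arrays held high values of some members. In CA1 NSt-Con 3, whose choroid plexus list lay 2.37 above the area mean, 15 of 41 members were above all 9 CA1 arrays that were not choroid-rich and 5 below all of them, against 19.1% and 20.5% of all probe sets. RT1-CE5 read 8.18 there, against 7.28 to 7.49 in those 9 arrays. RT1-Da read 7.08 against 6.03 to 6.42, RT1-Ba 7.17 against 6.48 to 6.69, RT1-M3-1 7.55 against 6.80 to 7.21, and B2m 11.86 against 11.52 to 11.72. RT1-M10-1 was low, at 6.38 against 6.68 to 6.95. Choroid plexus was not the only list that stood apart in CA1 NSt-Con 3. A list of 12 genes of the leptomeninges (inner brain membranes) read 7.54 there, the highest in CA1, against a CA1 median of 6.75. The perivascular macrophage list (6.32) and the list of CA3 and CA2 markers (9.19) were also the highest in CA1. The microglial list was the lowest, at 7.89.

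CA3 NSt-Con 3, with the list 2.42 above its area mean, had 6 members above and 1 below all 11 other CA3 arrays (9.7% and 6% of all probe sets). Its high members included RT1-Da (7.50 against 6.67 to 7.05) and Tapbp (8.02 against 7.51 to 7.82), while RT1-M3-1 was low at 6.87 against 6.92 to 7.40. CRTX NSt-Con 1, at 2.37 above, had 10 members above and 2 below (8.4% and 12.8%), with RT1-CE5 at 7.35 against 6.91 to 7.20. The leptomeninges list was the highest of its area in CA3 NSt-Con 3 too, at 7.69. In the CRTX it was highest in St-Vin 3 (6.99), and NSt-Con 1 read 6.58. These arrays are all of 1 group, NSt-Con. CA1 NSt-Con 3 and CA3 NSt-Con 3 come from the same pool of rats, so they are not separate pools. The part of choroid plexus and leptomeninges RNA in the members' values was not tested.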

How the data were processed

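The authors deposited log2 signals, as their range shows, and the submitters' processing notes name RMA and Partek; versions and the genome build are not given in the sources used here. RMA corrects background, normalizes arrays and summarises probes, which compresses changes of dim probe sets. Array medians differed between areas, and area differences are given as deposited and after quantile normalization. Gene symbols come from the platform table: 15097 of 27342 probe sets have 1 symbol, 323 several and 11922 none, and all 41 members matched a RefSeq gene number.

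Tests used limma 3.58.1 in R 4.3.3 on all probe sets, with eBayes and Benjamini-Hochberg adjustment: per area over the 4 groups, over the area means of the 10 pools measured in all areas, and over all areas with the pool as random block (correlation 0.0487). Fits were checked on simulated arrays with known changes. Promoters were aligned with Biopython 1.88. Each array is 1 pool, and p-values measure the spread between pools; the number of arrays limits their precision.

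Dyad numbers link the Con and Vin pools of cage mates, per the labels. Deviations from the group means correlated above 0.1 in 6 of 6 dyad groups in the BLA, 3 of 5 in the CRTX, 5 of 5 in CA1 and 5 of 6 in CA3. The block was an alternative and not the main fit. Alternatives were all 48 arrays, a filter at the 30th percentile (6.25 log2), quantile normalization, and eBayes with trend and robust settings. Others were dyad and scan day blocks, a fit without the choroid-rich arrays, and each replicate left out.

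The members and all gene lists were chosen with earlier results of these data known. Members called are named with values; where fewer than 2 passed a contrast, the 2 with the smallest p; for pools the 8 with the smallest p; for area differences the 4 highest and 4 lowest; and the 7 processing genes. Not every value under this rule is printed. RT1 genes share sequence, and probes may read relatives. The probe sets with several RT1 symbols were not used here.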

Additional observations from a re-analysis of the deposited data

How the results depend on the processing

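Every call at the level of the groups rested on few arrays. The number of members called for stress in CRTX control animals was 2 as reported, 0 with a filter at the 30th percentile (which removes RT1-CE2 and RT1-S2), 1 with dyad group as a random replicate block, 0 with scan day as a block and 1 without choroid-rich arrays; leaving out single replicates gave 0 to 2. For stress averaged over lineages in the CRTX it was 0 as reported, 2 with all 48 arrays and 1 with trend and robust eBayes. For stress in CA1 Vin animals it was 1 as reported, 4 with all 48 arrays, 2 with trend and robust eBayes, 2 without choroid-rich arrays and 0 to 2 with single replicates left out. For stress averaged over lineages in CA1 it was 0, and 2 with all 48 arrays. For lineage under stress in CA1 it was 0, and 2 with dyad group as a fixed replicate block. For CA1 minus CRTX it was 40, and 25 after quantile normalization. For a stress effect that differs between areas it was 0, and 1 with all 48 arrays. Using all 48 arrays counts 2 arrays that equal the mean of their neighbours, which narrows the spread. The cause of the other moves was not tested. The replicate block moved no other count of members past the threshold by over 1.5 times. No direction of a reported member turned in these fits other than by scale between areas. A scan day block in CA1 was not run, since St-Vin has that day to itself once CA1 St-Con 3 is left out. No depth is known for arrays; 7 members lie under the 30th percentile of signal in every area.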
